A study of Homo sapiens with 12 samples.

Results

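The 7 genes described here encode proteins that occupy ribosomes when they are not translating, together with the elongation factor found beside them and its kinase. They are *SERBP1* and its paralog *HABP4*, *IFRD1* and *IFRD2*, *CCDC124*, *EEF2* and *EEF2K*. They were taken by name from a list of factors that bind idle ribosomes, with no threshold on their values but with earlier results of these data known. All 7 were found among the 59385 gene names of the count table and passed the filter that left 18166 genes to be tested. Total RNA and polysome-associated RNA, the latter pooled from the heavier fractions of a sucrose gradient, were sequenced from 2 lines of HEK293T, a human embryonic kidney line. One line carried a Dox-inducible non-targeting shRNA (shCtrl) and the other a Dox-inducible shRNA against *PRRC2B* (shPRRC2B), an RNA binding protein, and both were induced for 36 h. Each line and fraction had 3 libraries that the labels call biological replicates, so that 12 libraries fell into 4 groups. Each line was a single clone, so the shRNA and the clone cannot be told apart, and every contrast between the lines uses the same shCtrl libraries.

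A ribosome that carries no mRNA is kept intact and inactive by proteins that fill its mRNA channel or its tRNA sites. SERBP1 and HABP4 thread through the mRNA channel and are found with eEF2, the GTPase that moves the ribosome along the mRNA by one codon. IFRD1 and IFRD2 occupy tRNA sites and the mRNA exit, and CCDC124 sits at the tRNA sites of ribosomes that are inactive or being recycled. EEF2K phosphorylates eEF2 and so slows elongation.

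*PRRC2B* RNA itself was 281 ± 28.7 CPM (read counts over library size in megareads, scaled between libraries by TMM, a trimmed mean of ratios) in shCtrl total RNA and 100.3 ± 2.32 in shPRRC2B total RNA (SD, n = 3), with no overlap. Library totals were 9855734 to 20837542 counted read pairs. Pairs of total RNA replicates differed by 3.13 to 7.74 times the counting noise (chi-square per degree of freedom) and pairs of polysome replicates by 12.7 to 68.1 times. In both lines the polysome library numbered 1 stood farthest from the other 2, at 48.9 and 68.1 in shCtrl and at 34.2 and 33.8 in shPRRC2B. Of the kidney epithelial markers PAX2, PAX8, CDH1, KRT8, KRT18 and EPCAM, 5 of 6 reached 1 CPM in total RNA and PAX8 was at or near 0. Their summed level, in CPM of all counts, was 209.8 to 216.7 in shCtrl and 122.2 to 124.3 in shPRRC2B total RNA. The 4 neuronal genes known from HEK293 lines (NEFL, NEFM, INA and ENO2) summed to 785 to 870.8 and to 306.7 to 313.6. Markers of endothelium summed to at most 0.162 and those of blood to at most 6.12 in any total RNA library, with PTPRC and HBB at 0 in shCtrl, and those of muscle to at most 3.22. Those of fibroblasts summed to 22.7 to 28.8 in shCtrl and 41.6 to 47.1 in shPRRC2B, with COL1A1 above 1 CPM in both lines and COL1A2 at 0 in shCtrl. The lines thus differed in marker levels as well as in the shRNA, and the part of this in the results below was not tested. In bulk RNA, fewer cells that express a gene and less RNA per cell cannot be told apart.

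Shown here are 2 windows of *EEF2* at which PRRC2B was crosslinked to RNA in the PAR-CLIP data of the study, both inside the coding sequence. Whether the other 6 genes hold such windows is not reported here, so no gene is set apart by them. In the study the crosslinked protein was overexpressed with a FLAG tag, and contact with PRRC2B in the 2 lines described here was not measured. The windows are read from the minus strand of GRCh38, with the longest run of purines or of pyrimidines in capitals. They lie at chr19:3983157-3983256 in exon 3 (coding bases 254 to 353 of 2574, 56 of 100 pyrimidines) and at chr19:3979331-3979430 in exon 11 (coding bases 1612 to 1711, 56 of 100 purines).
EEF2 exon 3: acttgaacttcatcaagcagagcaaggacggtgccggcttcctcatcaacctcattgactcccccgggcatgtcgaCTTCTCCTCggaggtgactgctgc
EEF2 exon 11: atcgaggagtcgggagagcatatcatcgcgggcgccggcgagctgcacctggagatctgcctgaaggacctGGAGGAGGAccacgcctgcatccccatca

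*EEF2* and *SERBP1* begin alike. In the RefSeq promoter table (GRCh38.p14) the 15 bases before and after the annotated start of *EEF2* and *SERBP1* read as follows, with the pyrimidines that open the transcript in capitals.
EEF2 start: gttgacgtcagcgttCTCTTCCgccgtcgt
SERBP1 start: gagaagacggcccccCTCTCTCggcccggc
Both transcripts open with C and an unbroken run of 7 pyrimidines. A C followed by at least 4 pyrimidines, read on the transcribed strand at the first base, is the form of a terminal oligopyrimidine (TOP) start, and 4.07% of all 35116 promoters in the table had it. Of the other 5 genes, *IFRD1* had it at 1 of its 4 listed starts, which is not its canonical one, and *HABP4*, *IFRD2*, *CCDC124* and *EEF2K* did not have it at theirs. These letters are a description of annotated starts, and which start was used in these cells was not measured.

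The 7 mRNAs covered a wide range of levels. Per kilobase of the canonical transcript, *EEF2* in shCtrl total RNA stood at 992 CPM, *SERBP1* at 163, *CCDC124* at 98.2, *IFRD2* at 42.8, *EEF2K* at 9.12, *HABP4* at 8.69 and *IFRD1* at 3.85. Within both pairs of paralogs, then, 1 member held most of the RNA. In total RNA the ranges of both lines were apart for 6 of the 7 genes, all but *CCDC124*, and in polysome RNA for 3 (*SERBP1*, *IFRD1* and *EEF2K*). Among all genes tested 62.95% were apart in total RNA and 43.1% in polysome RNA.

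**Figure D1:**
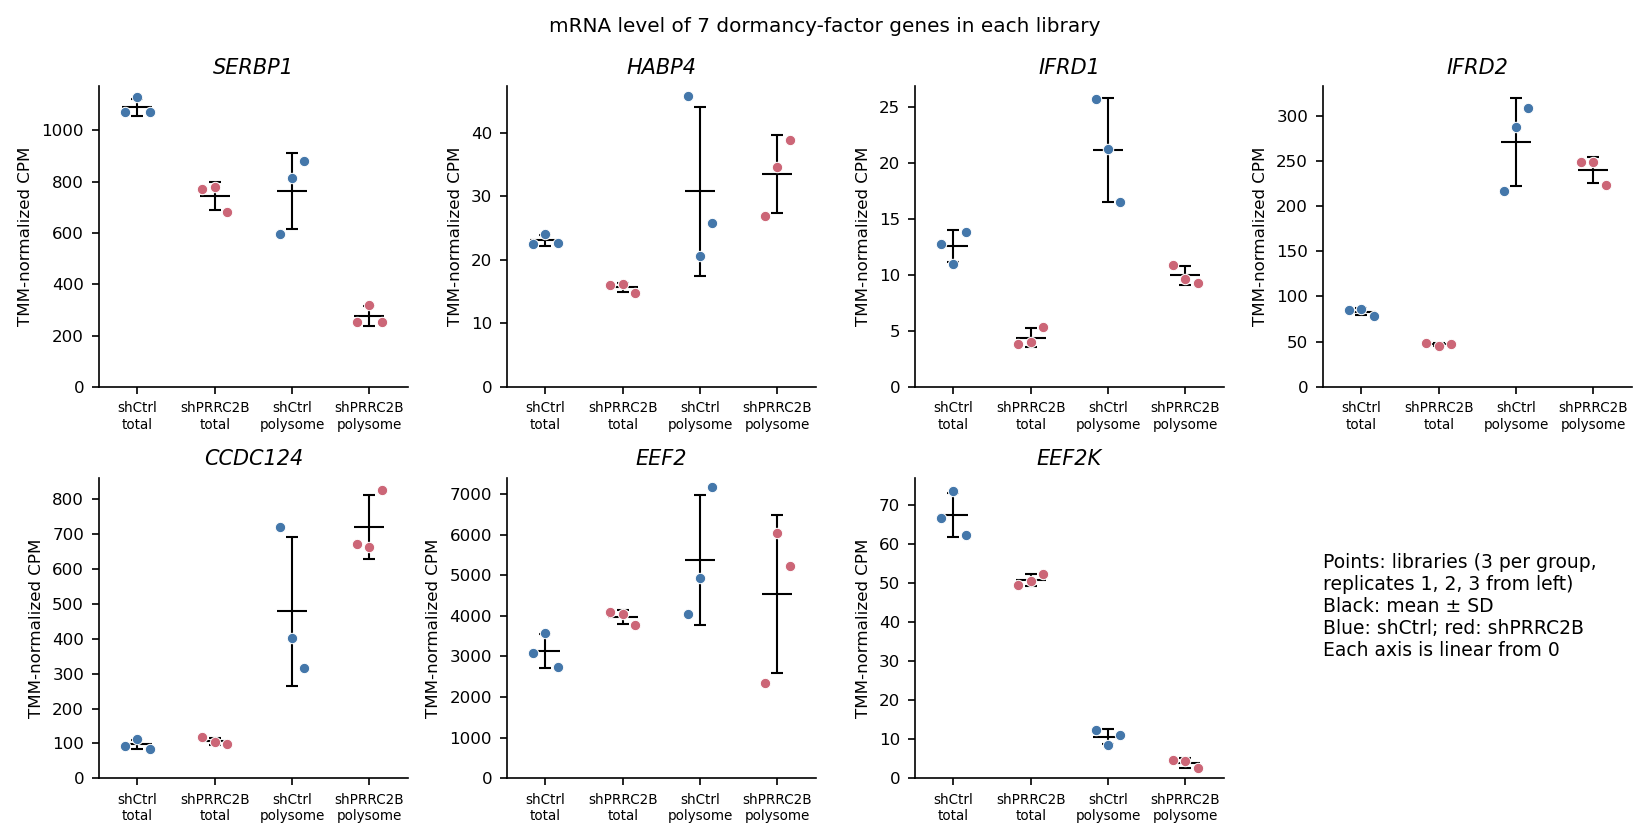
TMM-normalized CPM (linear axes from 0) of each gene in the 12 libraries, in 4 groups of 3, with the mean and SD in black. *SERBP1* and *EEF2K* were lowest in shPRRC2B polysome RNA, *CCDC124* and *IFRD2* were far higher in both polysome groups than in total RNA, and *EEF2* and *HABP4* polysome libraries were widely spread.

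The first question was whether these mRNAs changed in amount or in their share on polysomes once *PRRC2B* was depleted. A change in translation efficiency (TE) means here that polysome RNA relative to total RNA differed between the lines, given as log2 of shPRRC2B over shCtrl. A gene was called when its adjusted p was under 0.05 in edgeR's quasi-likelihood test (Benjamini-Hochberg over all genes tested) and its log2 change was above 0.5 or below -0.5. In TE, 1 of the 7 genes rose (*IFRD2*) and 2 fell (*SERBP1* and *EEF2K*), beside 10.7% of all genes that rose and 16.4% that fell. In total RNA 0 rose and 3 fell (*SERBP1*, *IFRD1* and *IFRD2*), beside 14.9% and 14.1% of all genes. In the fit of all libraries no gene of the 7 was higher there at an unadjusted p under 0.05, or with DESeq2. In a fit of the total RNA libraries alone *EEF2* was higher with an adjusted p of 0.00136, but by less than the minimum of 0.5. In polysome RNA 1 rose (*CCDC124*) and 3 fell (*SERBP1*, *IFRD1* and *EEF2K*), beside 18.4% and 21.4%. The median log2 change of the 7 genes was 0.42 in TE, -0.55 in total RNA and -0.24 in polysome RNA, and that of all genes was -0.03, 0.04 and -0.01.

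**Figure D2:**
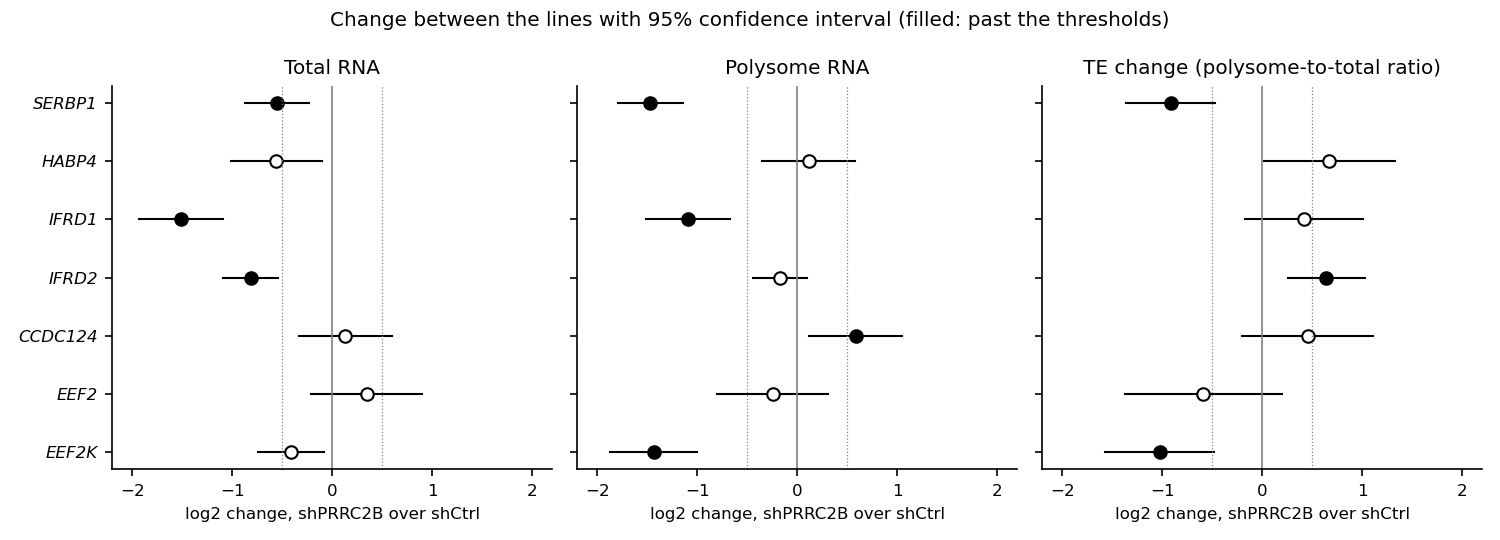
Log2 change, shPRRC2B over shCtrl, of total RNA, polysome RNA and TE for the 7 genes, with 95% confidence intervals from the edgeR fit and dotted lines at the threshold of 0.5. Filled points were called, and *SERBP1* is the only one of the 7 filled in all 3 panels.

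*SERBP1*, whose protein fills the mRNA channel of idle ribosomes, fell in total RNA, in polysome RNA and in TE. Its level was 1071, 1129 and 1072 CPM in the shCtrl total RNA libraries and 773.3, 777.9 and 680.6 in the shPRRC2B ones. In polysome RNA it was 597.1, 814 and 879.8 CPM in shCtrl and 252.9, 321 and 253.7 in shPRRC2B. Every shPRRC2B library was below every shCtrl library of its fraction. Ordered by mean of these TMM-scaled values, shCtrl total RNA came first and shPRRC2B polysome RNA stood alone at the bottom. Between them, shCtrl polysome and shPRRC2B total RNA overlapped. This order across fractions depends on scaling, as the log2 polysome-to-total ratio in shCtrl was -0.51 here and -1.52 with total count scaling. The log2 change was -0.55 ± 0.15 (SE) in total RNA (adjusted p = 0.00918), or 0.682-fold, and -1.47 ± 0.15 in polysome RNA (adjusted p = 1.32e-06), or 0.361-fold. The fall was thus larger on polysomes, and the TE change was -0.92 ± 0.21 (0.53-fold, 95% confidence interval -1.37 to -0.47, adjusted p = 0.00442). Without shPRRC2B total replicate 3 the total RNA change was -0.49 and was no longer called. 2 processed pseudogenes, SERBP1P1 and SERBP1P5, held 1.46 to 2.61% and 0.862 to 1.43% as many counts as *SERBP1*, and reads shared with them were not counted. Their log2 changes were -0.69 ± 0.23 and -0.66 ± 0.23 in total RNA and -1.56 ± 0.25 and -1.26 ± 0.28 in polysome RNA, all 4 called. Their TE changes of -0.87 ± 0.34 (adjusted p = 0.0651) and -0.60 ± 0.36 (adjusted p = 0.239) were not called.

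*HABP4*, the paralog that can take the same place on the ribosome, was not called in any contrast between the lines with the settings reported here. Its total RNA was 22.4, 24.1 and 22.7 CPM in shCtrl and 16, 16.2 and 14.8 in shPRRC2B. Its polysome RNA was 45.8, 20.6 and 25.8 CPM in shCtrl and 26.8, 34.7 and 38.9 in shPRRC2B. Total RNA was apart between the lines, while polysome RNA overlapped, with shCtrl replicate 1 the highest of the polysome libraries. The log2 change was -0.56 ± 0.22 in total RNA (adjusted p = 0.0559), 0.12 ± 0.22 in polysome RNA (adjusted p = 0.704) and 0.67 ± 0.31 in TE (95% confidence interval 0.02 to 1.32, adjusted p = 0.118), which left all 3 short of the threshold on adjusted p. Without shCtrl polysome replicate 1 the TE change was 1.04 and was called (adjusted p = 9.19e-04), and with both polysome libraries numbered 1 left out it was 1.18 (adjusted p = 5.36e-05). It was 0.39 (adjusted p = 0.323) without shCtrl polysome replicate 2, the lowest of the 12 fits with 1 library left out. In a fit of the 6 total RNA libraries alone the total RNA change was -0.60 and was called (adjusted p = 1.24e-05). It was also called with total count scaling (-0.63, adjusted p = 0.0332) and with TMM within each fraction (-0.60, adjusted p = 0.0416). It was not called with DESeq2 (adjusted p = 0.0592) or limma (adjusted p = 0.0762). A stretch of 1096 of the 4088 exonic bases of *HABP4* is shared with exons of CDC14B on the other strand, which had 184 to 1623 counts. The counting options that the study lists name no strand setting. Whether reads from that stretch were counted for either gene, or left out, is therefore not known here.

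Because both genes were read in the same libraries, the ratio of their counts does not depend on scaling. In total RNA there were 46.9 to 47.8 *SERBP1* counts for each *HABP4* count in shCtrl and 45.9 to 48.3 in shPRRC2B. The mean log2 ratio was 5.57 ± 0.01 and 5.57 ± 0.04 (SD, n = 3), and the exact permutation test (two-sided) gave p = 1. In polysome RNA the ratio was 13, 39.5 and 34 in shCtrl and 9.43, 9.26 and 6.52 in shPRRC2B, with no overlap. The difference there was -1.65 on the log2 scale (0.319-fold). Its exact permutation p was 0.1, the smallest that 3 against 3 can give, and 0.133 after adjustment over the 8 ratio comparisons made. In total RNA the ranges of the ratio thus overlapped between the lines. On polysomes every shPRRC2B library lay below every shCtrl one, a difference that this test cannot call with 3 against 3. The mRNAs of *SERBP1* (6681 nt) and *HABP4* (2651 nt) differ in length, and the ratio was not computed with the length trend described below removed. With that trend removed, the log2 polysome RNA change was -1.04 for *SERBP1* and 0.06 for *HABP4*.

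**Figure D3:**
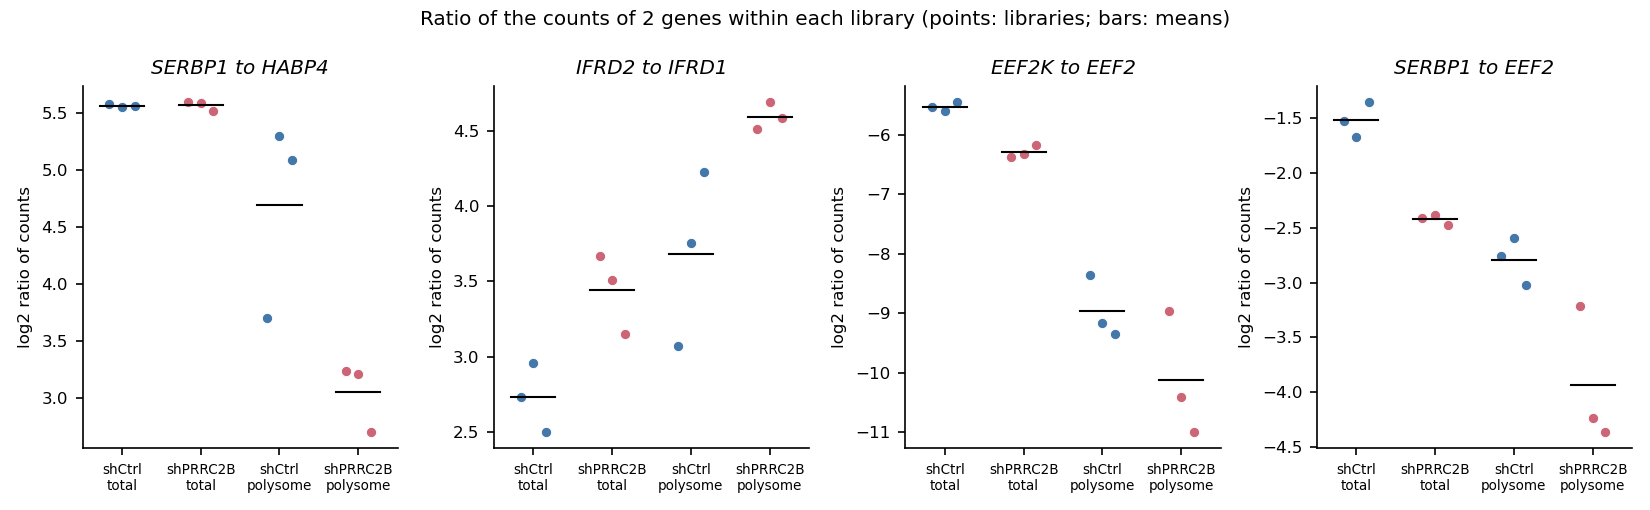
Log2 ratio of the counts of 2 genes within each library, for 4 pairs, with points for libraries and bars for means. The *SERBP1* to *HABP4* ratio was level in total RNA of both lines and lower in all 3 shPRRC2B polysome libraries, and the *EEF2K* to *EEF2* ratio overlapped between the lines in polysome RNA.

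*IFRD1*, the less abundant of the paralogs that occupy tRNA sites, had the largest total RNA change of the 7. Its total RNA was 12.8, 11 and 13.9 CPM in shCtrl and 3.83, 3.97 and 5.38 in shPRRC2B. Its polysome RNA was 25.8, 21.3 and 16.5 CPM in shCtrl and 10.9, 9.65 and 9.32 in shPRRC2B. In these TMM-scaled values all 4 groups were apart from each other, but the distance between the fractions depends on scaling. With total count scaling the log2 polysome-to-total ratio of *IFRD1* was -0.24 in shCtrl and 0.24 in shPRRC2B, neither called. On the log2 scale it changed by -1.51 ± 0.20 in total RNA (0.35-fold, adjusted p = 2.49e-05) and -1.09 ± 0.20 in polysome RNA (0.47-fold, adjusted p = 2.95e-04). Its TE change of 0.42 ± 0.28 did not pass the test (95% confidence interval -0.17 to 1.01, adjusted p = 0.279). These values rest on 82 to 339 counts per library. Of its 7902 exonic bases, 1742 are shared with an unnamed protein-coding gene of GENCODE 44 on the same strand, whose counts were not analysed here.

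*IFRD2* fell in total RNA while its polysome RNA did not pass the test, and its TE rose. Its total RNA was 85, 85.8 and 78.8 CPM in shCtrl and 48.6, 45.3 and 47.9 in shPRRC2B. Its polysome RNA was 216.4, 287.3 and 308.6 CPM in shCtrl and 248.6, 248.4 and 223.3 in shPRRC2B. Total RNA was apart between the lines and polysome RNA overlapped. Its log2 changes were -0.82 ± 0.13 in total RNA (0.568-fold, adjusted p = 1.67e-04), -0.17 ± 0.13 in polysome RNA (95% confidence interval -0.45 to 0.10, adjusted p = 0.294) and 0.64 ± 0.18 in TE (1.56-fold, adjusted p = 0.0157). The TE call was lost without shCtrl polysome replicate 1 (0.47), without shPRRC2B total replicate 2 (adjusted p = 0.0526) and with both polysome libraries numbered 1 left out (0.43). *IFRD2* shares 43 exonic bases with HYAL3 on the same strand.

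The ratio of *IFRD2* to *IFRD1* counts was higher in shPRRC2B in both fractions. It was 5.67 to 7.78 in shCtrl and 8.9 to 12.7 in shPRRC2B total RNA, and 8.4 to 18.7 and 22.8 to 25.7 in polysome RNA. The differences were 0.71 and 0.91 on the log2 scale, with no overlap in either fraction and an exact permutation p of 0.1 for each (0.133 adjusted), the smallest the design allows. Without shCtrl polysome replicate 1 the polysome difference was 0.60. This ratio was not computed with the length trend described below removed either.

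*CCDC124*, the shortest of the 7 mRNAs, was the one whose total RNA overlapped between the lines. Its total RNA was 93.9, 112.2 and 84.7 CPM in shCtrl and 117.5, 104 and 97.2 in shPRRC2B. Its polysome RNA was 720.4, 401.5 and 315.6 CPM in shCtrl and 670.3, 663.6 and 824.7 in shPRRC2B. 2 of the 3 shCtrl polysome libraries were below all of shPRRC2B, and replicate 1 was above 2 of them. Its log2 changes were 0.13 ± 0.22 in total RNA (adjusted p = 0.679), 0.59 ± 0.22 in polysome RNA (1.5-fold, adjusted p = 0.0382) and 0.45 ± 0.31 in TE (95% confidence interval -0.20 to 1.11, adjusted p = 0.297). The polysome call was lost in 8 of the 12 fits with 1 library left out, where the change ran from 0.25 to 0.92, and in a fit of the 6 polysome libraries alone (0.58, adjusted p = 0.0952). The TE change was 0.83 and was called without shCtrl polysome replicate 1 (adjusted p = 0.0029), and it was 0.28 (adjusted p = 0.578) without replicate 2 of that group, 0.17 (adjusted p = 0.705) without its replicate 3 and 0.30 (adjusted p = 0.566) without shPRRC2B polysome replicate 3.

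*EEF2*, the translocase, was the most abundant of the 7 and was not called in any contrast between the lines. Its total RNA was 3072, 3583 and 2740 CPM in shCtrl and 4100, 4050 and 3784 in shPRRC2B. Its polysome RNA was 4041, 4918 and 7162 CPM in shCtrl and 2346, 6048 and 5229 in shPRRC2B. Every shPRRC2B total RNA library was above every shCtrl one, whereas polysome RNA overlapped, with shPRRC2B replicate 1 the lowest library of all. Its log2 changes were 0.35 ± 0.26 in total RNA (1.27-fold, 95% confidence interval -0.21 to 0.90, adjusted p = 0.332), -0.24 ± 0.26 in polysome RNA (95% confidence interval -0.80 to 0.31, adjusted p = 0.478) and -0.59 ± 0.37 in TE (95% confidence interval -1.37 to 0.20, adjusted p = 0.257). The interval of the TE change includes -0.92, the value of *SERBP1*. In a fit of the 6 total RNA libraries alone the change was 0.30 with an adjusted p of 0.00136, under the minimum of 0.5. When every gene with any count was kept, the TE change had an adjusted p of 0.0117 and was called. With 1 library left out it was not called and ran from -0.34 without shPRRC2B polysome replicate 1 to -0.89 without shPRRC2B polysome replicate 2, and it was -0.39 without shCtrl polysome replicate 3. *SERBP1* was called in TE and *EEF2* was not, and a difference between their TE changes was not tested as such.

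Counts of *SERBP1* relative to *EEF2* were lower in shPRRC2B in both fractions. The log2 ratio was -1.51 ± 0.16 in shCtrl and -2.42 ± 0.05 in shPRRC2B total RNA, a difference of -0.91 (0.533-fold). In polysome RNA it was -2.79 ± 0.22 and -3.94 ± 0.63, a difference of -1.15 (0.452-fold) (SD, n = 3). The exact permutation p was 0.1 for both, the smallest that 3 against 3 can give, and 0.133 after adjustment. No library of one line lay within the range of the other. The mRNAs of *SERBP1* (6681 nt) and *EEF2* (3158 nt) differ in length, and the ratio was not computed with the length trend described below removed.

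*EEF2K*, the kinase that inhibits eEF2, had the longest canonical mRNA of the 7 and the lowest share on polysomes. Its total RNA was 66.6, 73.5 and 62.3 CPM in shCtrl and 49.6, 50.5 and 52.4 in shPRRC2B. Its polysome RNA was 12.4, 8.57 and 11 CPM in shCtrl and 4.73, 4.49 and 2.57 in shPRRC2B, from 79 to 132 and from 27 to 55 counts. All 4 groups were apart. The log2 change was -0.41 ± 0.16 in total RNA (0.752-fold, adjusted p = 0.0505), -1.43 ± 0.21 in polysome RNA (0.37-fold, adjusted p = 3.17e-05) and -1.02 ± 0.26 in TE (0.492-fold, 95% confidence interval -1.57 to -0.48, adjusted p = 0.00759). The total RNA change was -0.46 (adjusted p = 1.87e-05) in a fit of the 6 total RNA libraries alone, under the minimum of 0.5. The ratio of *EEF2K* to *EEF2* counts was lower in shPRRC2B total RNA by a log2 difference of -0.76 (0.591-fold). Its exact permutation p was 0.1, the smallest the design allows, and 0.133 adjusted. In polysome RNA the ratio overlapped (-1.16, exact permutation p = 0.3, 0.343 adjusted). These mRNAs also differ in length (7398 and 3158 nt), and the ratio was not computed with the length trend removed. The polysome difference was -1.74 without shPRRC2B replicate 1, where the lines no longer overlapped, and -0.72 without shPRRC2B replicate 3. *EEF2K* shares 714 of 8030 exonic bases with an unnamed long noncoding RNA on the other strand.

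The second question was how far each mRNA lay on polysomes in each line. Against total RNA, 4 of the 7 were higher and 2 lower in polysome RNA of shCtrl, beside 32.5% and 39.8% of all genes, and again 4 and 2 in shPRRC2B, beside 36.6% and 42.3%. In shCtrl the log2 polysome-to-total ratio was 2.31 ± 0.23 for *CCDC124*, 1.70 ± 0.13 for *IFRD2*, 0.78 ± 0.26 for *EEF2* and 0.76 ± 0.19 for *IFRD1*, all called, and 0.42 ± 0.22 for *HABP4*, which was not. It was -0.51 ± 0.15 for *SERBP1* and -2.66 ± 0.18 for *EEF2K*, both called. In shPRRC2B it was 2.76 ± 0.23, 2.35 ± 0.14, 0.19 ± 0.26 (not called), 1.18 ± 0.21, 1.09 ± 0.22, -1.43 ± 0.15 and -3.69 ± 0.20 for *CCDC124*, *IFRD2*, *EEF2*, *IFRD1*, *HABP4*, *SERBP1* and *EEF2K*. These values depend on how the fractions are scaled, and the median of all genes was -0.22 in both lines but -1.22 in shCtrl and -1.16 in shPRRC2B with total count scaling. Under that scaling, and with TMM within each fraction, the sign turned for *HABP4*, *IFRD1* and *EEF2* in shCtrl and for *EEF2* in shPRRC2B, and the shPRRC2B calls of *HABP4* and *IFRD1* were lost. The shCtrl call of *SERBP1* was lost without shCtrl polysome replicate 1 (-0.40) and with DESeq2, and that of *EEF2* when either of the shCtrl libraries numbered 3 was left out. Other scalings shift all genes nearly alike, so the values are also given relative to the median of all genes. In shCtrl *CCDC124* stood 2.53 above that median, *IFRD2* 1.93, *EEF2* 1.00, *IFRD1* 0.98 and *HABP4* 0.64, while *SERBP1* stood at -0.29 and *EEF2K* at -2.44. *EEF2K* was above 10.6% of all genes in this ratio, *SERBP1* above 44.4% and *CCDC124* above 88.7%.

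Transcript length moved with both the polysome-to-total ratio and the TE change. Over the 15762 tested genes with a canonical transcript in GENCODE 44, the Spearman correlation with length was -0.56 for the ratio in shCtrl and -0.41 for the TE change (across genes, which share the libraries). The 2657 genes of at least 6000 nt had a median TE change of -0.69, and 43% of them were called lower. *SERBP1* (6681 nt, of which 5400 are 3′ untranslated sequence with the stop codon) and *EEF2K* (7398 nt) belong to these. The 4748 genes under 2000 nt, with *IFRD2* (1943 nt) and *CCDC124* (987 nt), had a median of 0.34, and 18.5% were called higher. *EEF2* (3158 nt), *HABP4* (2651 nt) and *IFRD1* (3269 nt) lie among the 5378 genes from 2000 to 4000 nt, whose median was -0.04. The lengths are annotated, and the isoforms used were not measured.

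**Figure D4:**
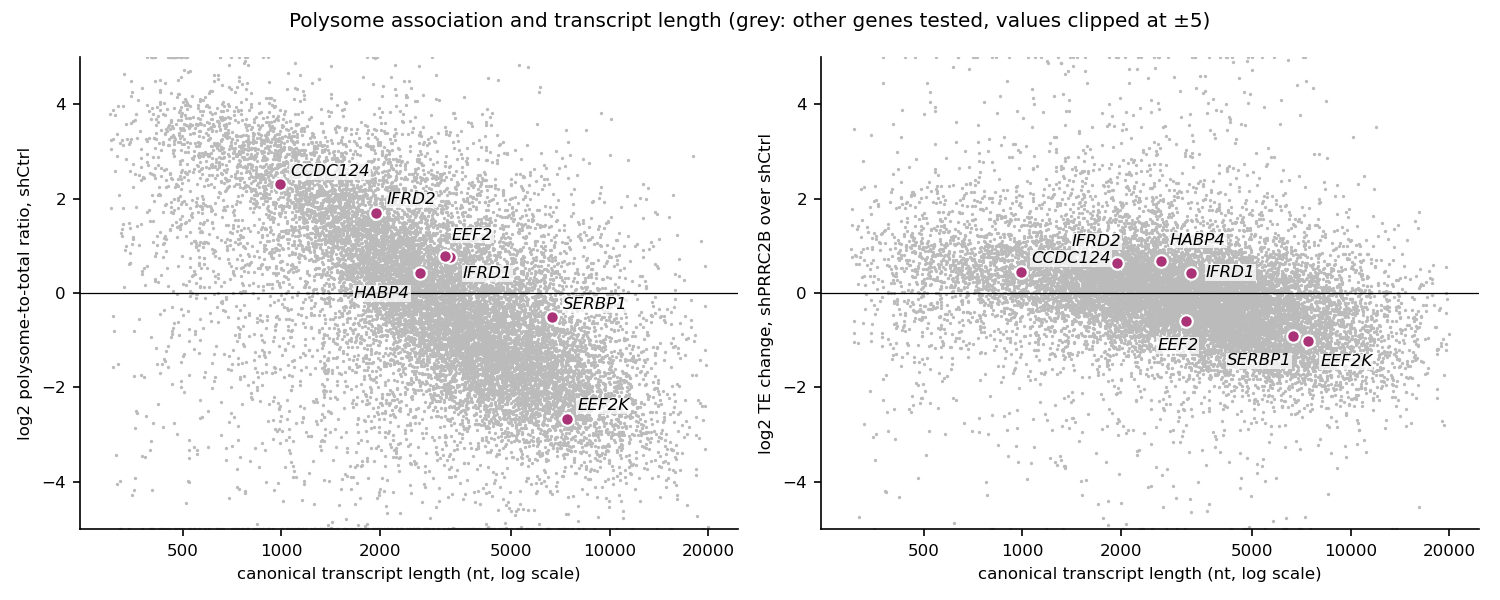
Log2 polysome-to-total ratio in shCtrl (left) and log2 TE change (right) against canonical transcript length (log axis), with tested genes of 300 to 20000 nt in grey and the 7 genes marked. Longer transcripts lay lower in both panels, and *SERBP1* and *EEF2K* lie at the long end with TE changes of -0.92 and -1.02.

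When the trend on length was removed from each library, none of the 3 TE calls was left. *SERBP1* was then at -0.32 (adjusted p = 0.283), *EEF2K* at -0.39 (adjusted p = 0.283) and *IFRD2* at 0.49 (adjusted p = 0.0595). *HABP4* stood at 0.67, *IFRD1* at 0.57, *CCDC124* at 0.10 and *EEF2* at -0.47, and none was called. The polysome-to-total ratio of *SERBP1* turned sign, to 0.92 in shCtrl and 0.60 in shPRRC2B. The order of the 7 genes in shCtrl changed as well, with *IFRD1* at 1.13, *EEF2* at 1.08, *IFRD2* at 1.02, *CCDC124* at 0.52, *HABP4* at 0.35 and *EEF2K* at -1.12. The polysome RNA changes of *SERBP1* (-1.04), *IFRD1* and *EEF2K* (-0.98) were still called, that of *CCDC124* was not, and in total RNA *HABP4* and *EEF2K* (-0.59) joined the 3 genes that fell. Under this setting 2784 of all 18166 genes tested were called lower in total RNA, 3198 in polysome RNA and 1759 in TE.

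**Figure D5:**
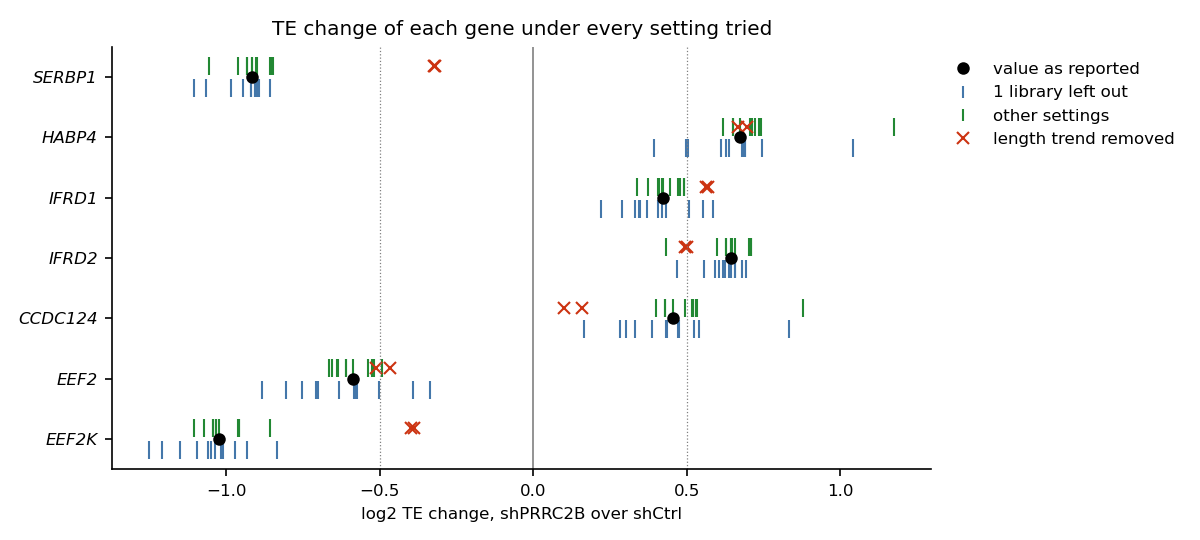
Log2 TE change of each gene as reported (black points), with 1 library left out (blue ticks), under the other settings (green ticks) and with the length trend removed (red crosses). Every gene kept its sign throughout, and the red crosses of *SERBP1* and *EEF2K* lie inside the threshold of 0.5 while their other marks lie outside it.

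The genes most like each of the 7 across the 12 libraries were found by Pearson's r of log2(CPM + 1) among 10051 genes of at least 10 CPM. As the 4 groups make most of the spread, r is a description of the group pattern. *SERBP1* was nearest to TRIM28 (0.988), TOMM70 (0.985) and GLUL (0.985), and *EEF2K* to PARP1 (0.998) and PLXNA1 (0.997). *CCDC124* was nearest to BAX (0.997), PTMS (0.996) and POLR2L (0.996), and *IFRD2* to TEX264 (0.996), RP11-515I12.1 (0.994) and ENTPD3-AS1 (0.994). These patterns were common for *EEF2K*, *CCDC124* and *IFRD2*, with 1772, 1453 and 844 genes above 0.95. They were rare for *EEF2*, whose nearest was VPS51 (0.963) before CCT3 (0.906) and MAN2B1 (0.904), with 1 gene above 0.95, and for *HABP4* (FJX1 0.964, BRI3BP 0.959, AZIN2 0.942), with 2. *IFRD1* was nearest to RPRM (0.974), ZNF71 (0.96) and CRABP2 (0.96), with 9 genes above 0.95, and *SERBP1* had 89.

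The remaining genes of these pathways were taken from 5 lists. Diphthamide is a modified histidine of eEF2, and of the 7 genes that make it 2 rose in TE and 0 fell (median 0.44). DPH7 rose by 1.32 ± 0.17 (adjusted p = 5.62e-05) and DPH3 by 0.71 ± 0.16 (adjusted p = 0.00402), both with total RNA that fell (-0.66 and -0.65), and both were also called with the length trend removed. Of 13 genes for calmodulin, AMPK and kinases that act on EEF2K, 0 rose and 6 fell (median -0.59). RPS6KA3 stood at -0.99 ± 0.18 (adjusted p = 8.18e-04) and MTOR at -0.96 ± 0.22 (adjusted p = 0.00377) with total RNA that rose by 1.32. With the length trend removed 1 rose and 1 fell in this list, and neither RPS6KA3 nor MTOR was called.

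Of 12 genes of ribosome splitting and rescue, 1 rose and 5 fell in TE (median -0.33). LTN1, a ubiquitin ligase for stalled chains, stood at -1.41 ± 0.21 (adjusted p = 1.51e-04), and ABCE1, the ATPase that splits ribosomes, at -1.40 ± 0.30 (adjusted p = 0.00229), while EDF1, a sensor of collided ribosomes, rose by 0.73 ± 0.22 (adjusted p = 0.0189). With the length trend removed 0 rose and 3 fell, LTN1 and ABCE1 among them. Of 6 other genes for proteins that bind idle or free ribosomes 5 were tested, and 1 fell (median -0.28). This was LARP1, which binds TOP mRNAs and ribosomal subunits, at -1.56 ± 0.25 (adjusted p = 2.82e-04), also called with the length trend removed (-0.93). DAPL1 did not pass the filter. Of 7 other cytosolic elongation factors 6 were tested, all but EEF1G, and 1 fell (median -0.26), namely EEF1A2 at -1.26 ± 0.29 (adjusted p = 0.00396). The counts of each list stand beside the 10.7% and 16.4% of all genes called higher and lower in TE.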

How the data were processed

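The authors deposited raw counts of read pairs per gene name for 12 libraries of polyA-enriched RNA. Per the labels and the methods of the study, the files were made with Trimmomatic 0.36, HISAT2 2.1.0 on GRCh38, and featureCounts (Subread 2.0.1) on GENCODE 38, leaving out pairs that map to several places. A strand setting is not given in the sources used here. Each filled column was matched to a library by its label, with 0 left over. Counts were fitted with edgeR 4.0.16 in R 4.3.3 (TMM over all libraries, filterByExpr with a minimum count of 10, glmQLFit and glmQLFTest on 4 groups) for 5 contrasts, and calls needed both an adjusted p below 0.05 and a log2 change beyond 0.5 in either direction. Alternatives were DESeq2 1.42.0, limma 3.58.1 on log2(CPM + 1), other scalings and filters, blocks, removal of a lowess trend (span 0.3) on transcript length, and fits without each library. Leaving out both polysome libraries numbered 1 was added after seeing the data. Ratios of 2 genes were compared by a two-sided exact permutation test. The edgeR steps were tested on simulated data. Named were the 7 genes, PRRC2B, the 3 genes most like each of the 7 and, from 5 lists, genes called in TE with a mean of at least 10 CPM, at most 2 highest and 2 lowest. A few items covered by these rules are not reported here. The genes and lists were chosen with earlier results of these data known. Positions and lengths are from GENCODE 44 and RefSeq, on GRCh38.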

Additional observations from a re-analysis of the deposited data

Results flagged for a closer look

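In 3 of the 7 genes the polysome-to-total ratio differed between the lines by the test of the difference itself (edgeR's quasi-likelihood test, adjusted over all genes tested), beside 10.7% of all genes called higher and 16.4% called lower by it. The log2 difference, shPRRC2B over shCtrl, was -0.92 for *SERBP1*, whose ratio was -0.51 in shCtrl and -1.43 in shPRRC2B. It was 0.64 for *IFRD2*, whose ratio was 1.70 and 2.35, and -1.02 for *EEF2K*, whose ratio was -2.66 and -3.69. With the trend on transcript length removed the differences were -0.32, 0.49 and -0.39, and 0 of the 3 were called.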

How the results depend on the processing

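Of the counts of genes called among the 7, those for TE and total RNA moved by over 1.5 times. Each was 3. Once the trend on transcript length was taken out, 0 were called in TE and 5 in total RNA, with or without the replicate block. Without the block, 2784 of all 18166 genes tested were then called lower in total RNA and 2180 higher, and in TE 1759 lower and 1971 higher. Same-numbered libraries did not deviate together (r from -0.06 to 0.05). As polysome replicates differed far beyond counting noise, this cannot decide whether libraries of the same number share a culture. The replicate block alone left 3 genes called in TE (*SERBP1* -0.92, *IFRD2* 0.65, *EEF2K* -1.03). With 1 library left out, the log2 difference of the *SERBP1* to *HABP4* ratio in total RNA ran from -0.0101 to 0.0265, with 0.00309 from all libraries. Of single values with 1 library left out, 393 kept direction and call, 14 lost the call, 8 gained it and 5 changed sign. Those 5 were *HABP4* in polysome RNA (-0.21, -0.11 and -0.10 without shCtrl polysome replicate 2, shCtrl polysome replicate 3 and shPRRC2B polysome replicate 3, range to 0.44), *HABP4* polysome against total in shCtrl (-0.0211 without shCtrl polysome replicate 1, range to 0.63) and *EEF2* polysome against total in shPRRC2B (-0.13 without shPRRC2B polysome replicate 2, range to 0.42). Under other settings 420 kept both, 21 lost the call, 15 gained it and 13 changed sign. The polysome-to-total ratio changed sign in shCtrl for *HABP4* (-0.58 and -0.59), *IFRD1* (-0.24 and -0.25) and *EEF2* (-0.23 and -0.23), and in shPRRC2B for *EEF2* (-0.77 and -0.75), with total count scaling and TMM within fraction. For *HABP4* in shCtrl it was also -0.0161 with both polysome libraries numbered 1 left out. For *SERBP1* it was 0.92 in shCtrl and 0.60 in shPRRC2B after removal of the length trend, and 0.91 and 0.59 if the replicate block was added. Over all genes those scalings took the share of higher calls in shCtrl from 45% to 23.1% and 23%, and in shPRRC2B from 46.4% to 29.6% and 29.7%, and removing the length trend took that share in TE from 39.4% to 52.8%, with 1759 genes called lower in place of 2981. A transcript length was available for 86.8% of tested genes. The cause of these changes was not tested. The SE of the TE change was 0.37 for *EEF2*, with at least 27283 counts in every library, and 0.26 for *EEF2K*, with 27 to 132 counts in polysome libraries.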
